A study of Papio anubis and Macaca mulatta with 6 samples.

Results

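The 9 genes described here make, destroy, sense and carry retinoic acid: the retinal dehydrogenases ALDH1A1, ALDH1A2 and ALDH1A3, the degrading enzyme CYP26B1, the nuclear receptors RARA, RARB and RARG, and the cellular binding proteins CRABP1 and CRABP2. They were picked by symbol and followed across the cell types of the immature primate testis. The gene list of the baboon held 7 of the 9 symbols among 34178 genes, and that of the rhesus held 9 of 9 among 21356 genes. ALDH1A2 and CYP26B1 were not found by symbol in the baboon list and were therefore not analysed there. Whether they are listed under another identifier was not checked. Both lists together hold 55534 genes.

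Single-cell transcriptomes were obtained from unselected testis cells of 2 olive baboons and 2 rhesus macaques, none of them labelled as treated, in 6 droplet libraries. Baboon 1 and rhesus 2 each gave 2 libraries, and baboon 2 and rhesus 1 gave 1 each. Baboon 2 was run with version 3 of the kit chemistry and the other animals with version 2, so that chemistry and animal cannot be told apart in the baboon. Testes were taken at necropsy and digested in 2 steps, with a wash between them meant to remove interstitial cells, so that the shares of stromal, Leydig and vascular cells are shares of what was left. The series text gives ages of 15 and 20 months for the baboons and newborn and 26 months for the rhesus, whereas the study's methods give these 2 pairs of ages to the opposite species. Age could therefore not be assigned to any animal, and no comparison by age was made. The species were aligned to different genomes (Panubis1.0 for the baboon, Mmul_10 for the rhesus) and tested separately.

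Retinol taken up from blood is oxidised to retinal and then, by the ALDH1A enzymes, to retinoic acid, which binds RAR receptors paired with RXR on DNA and turns on target genes. CYP26 enzymes oxidise retinoic acid away, and the CRABP proteins hold it inside the cell. In the testis this signal drives spermatogonia towards differentiation and meiosis, and enzymes of the somatic cells around the germ cells are a known source of it, while CYP26B1 is known for keeping fetal male germ cells out of meiosis.

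RARB is known both as a receptor and as a target gene of the pathway, through a direct repeat of the RAR binding element. Both strands of the rhesus genome (RefSeq, Mmul_10) were searched for such a repeat, with 5 bases between the elements. The search took AGGTCA as the canonical element, AGTTCA as the form known from many retinoic acid targets, GGGTCA as another form and GGTTCA as the last. The RARB gene with 5000 bases on either side, 433156 bases in all, held 3 such repeats, against a mean of 0.96 in genome stretches of that length. They are shown because RARB itself gave 114 UMIs in baboon and 18 in rhesus cells, with the elements in capitals:
RARB, chr2:22233671-22233687, minus strand: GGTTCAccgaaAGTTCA
RARB, chr2:22316862-22316878, minus strand: AGGTCAattctAGTTCA
RARB, chr2:22330172-22330188, minus strand: AGGTCAttctgGGTTCA

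The repeat at 22233671 lies 1694 bases downstream of the nearest annotated RARB transcript start. The other repeats lie at -81497 and -94807 bases from theirs, where the minus sign means upstream. Over all genes searched, 0.832% of 20788 had a repeat with this spacing within 1000 bases of a transcript start. With 2 bases between the elements the share was 7.22%, and such a repeat was found for ALDH1A1 and not for the other genes of the set that were searched. CYP26B1 was not searched. The ALDH1A1 repeat lies 452 bases downstream of an inner start at 88442261, whereas the outermost start of the gene is at 88490317. The repeat is:
ALDH1A1, chr15:88441796-88441809, plus strand: AGGTCAggAGTTCA

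A match is a run of letters and not a measured binding site. The dehydrogenases also differ in the 150 bases before the outermost annotated start of each gene. These stretches are printed for ALDH1A1 and ALDH1A3, the dehydrogenases with enough UMIs to follow. RARA and RARG are printed as the receptors with enough UMIs to be tested in both species. Capitals mark CCAAT (the CAAT box), TATAAA (the TATA box) and GGGCGG (the GC box), on either strand and in places overlapping:
ALDH1A1, chr15:88490318-88490467, minus strand: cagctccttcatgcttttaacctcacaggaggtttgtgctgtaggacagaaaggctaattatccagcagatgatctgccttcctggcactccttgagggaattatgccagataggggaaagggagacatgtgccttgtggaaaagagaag
ALDH1A3, chr7:80171281-80171430, plus strand: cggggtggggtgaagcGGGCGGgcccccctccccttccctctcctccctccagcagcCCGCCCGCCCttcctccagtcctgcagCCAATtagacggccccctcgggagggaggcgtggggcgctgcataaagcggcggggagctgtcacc
RARA, chr16:51464896-51465045, plus strand: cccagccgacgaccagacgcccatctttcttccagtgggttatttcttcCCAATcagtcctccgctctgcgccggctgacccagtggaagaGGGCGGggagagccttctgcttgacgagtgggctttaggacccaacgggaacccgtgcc
RARG, chr11:52797352-52797501, minus strand: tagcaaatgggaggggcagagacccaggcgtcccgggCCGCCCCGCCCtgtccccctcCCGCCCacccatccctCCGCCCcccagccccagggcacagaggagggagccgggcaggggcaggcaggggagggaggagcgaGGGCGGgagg

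ALDH1A1 held none of the 3 motifs before its outermost start and had a GC content of 48%. ALDH1A1 has 3 annotated starts, RARA 5, RARG 2 and ALDH1A3 1. Motifs before the inner starts were not counted, although a CCAAT stands before the ALDH1A1 start at 88442261. ALDH1A3 held 1 CAAT box and 3 GC boxes with a GC content of 73.3%, RARA 1 of each with 62%, and RARG 5 GC boxes with 77.3%. Among 20787 genes, 22.6% held a CAAT box, 6.12% a TATA box and 38.1% a GC box in the same window. In the rhesus build the genes lie on chromosome 15 (ALDH1A1, 88305399 to 88490317), 7 (ALDH1A3, 80171431 to 80206167; CRABP1, 55581817 to 55590909), 16 (RARA, 51465046 to 51513752), 2 (RARB, 22063429 to 22486584), 11 (RARG, 52776036 to 52797351) and 1 (CRABP2, 94260124 to 94265236).

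Levels are unique molecular identifiers (UMIs, counted transcripts) of a gene per 1000000 UMIs of all genes (CPM), summed over the cells of a class in an animal. Libraries held between 16875294 and 49803025 UMIs, and 23056 baboon and 26477 rhesus barcodes were called cells. Cells were put in classes by UMIs of marker genes, none of them a gene of the retinoic acid lists, and each name below means "like" that cell type. The 7 classes tested per species had at least 20 cells in each animal: Sertoli, germ, stroma, peritubular myoid and endothelial cells in both, pericytes and lymphoid cells in the baboon, and Leydig cells and macrophages in the rhesus. The marker rule gave no Leydig-like class of that size in the baboon, where only 4 of the Leydig symbols were listed, whereas clustering the cells gave 1 baboon cluster of 334 cells that was named Leydig-like by its markers. Most markers were highest in their own class, from 6 of 9 in rhesus stroma-like cells to 12 of 12 in baboon endothelial-like cells. The rhesus germ-like cells held 2 of their 20 markers at 0. Markers of other cells were also found. Endothelial markers summed to 2748 and 2603 CPM in baboon pericyte-like cells against 5011 and 6424 CPM in endothelial-like cells, and stroma markers to 7567 and 7250 CPM in rhesus myoid-like cells against 12169 and 8894 CPM in stroma-like cells. The 2 libraries of rhesus 2 shared 109 cell barcodes, against 79.3 from chance, and these cells were kept.

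Each class was compared with the mean of the other classes in 1 fit per species (edgeR, 2 animals per class), with p adjusted over all genes and called below 0.05. In the baboon 5 of the 7 genes passed the filter on low counts, and 13 of their 35 gene and class pairs were called. In the rhesus 6 of the 9 passed, and 11 of 42 pairs were called. Of all genes, between 4.94% and 39.3% were called by class in the baboon, and between 4.18% and 40.8% in the rhesus. Where a class has no UMIs of a gene, its difference rests on a prior count, and UMIs or ratios are given for that class instead. For the remaining classes, the mean of the others then holds that prior count too. In the set, differences from such a mean are still printed for ALDH1A3 in both species, baboon RARB, and rhesus RARG and CRABP2. Their size depends on the prior count, and their p-value and SE are affected as well. Each SE printed here is the size of the edgeR difference divided by the square root of its F statistic. Baboon Sertoli-like cells were not called lower in ALDH1A3 against the mean (edgeR, unadjusted p = 0.9997), although stroma-like cells exceeded them by 5.81 directly. Calls of these genes against the mean, and counts that include them, carry this limit. Stroma-like and germ-like cells were therefore also compared directly with Sertoli-like cells, a comparison chosen after seeing the data. Because the 2 animals supply all classes, values with the animal as a block are given where they change a call.

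Of the synthesis genes, ALDH1A1 had its highest mean level in Sertoli-like cells of both species. It gave 18877 UMIs in baboon cells and 12943 in rhesus cells, and Sertoli-like cells held 92.2% of its baboon UMIs in the 7 classes, against 81.5% of the UMIs of all genes. In the rhesus they held 67.1% of them, against 32.9% of the UMIs of all genes. Its level there was 337 and 203 CPM in baboons 1 and 2 and 389 and 686 CPM in rhesus 1 and 2. The 2 libraries of each animal lay close together, at 334 and 342 CPM in baboon 1 and at 685 and 687 CPM in rhesus 2. Sertoli-like cells exceeded the mean of the other classes by 2.54 on the log2 scale (SE 0.481) in the baboon (edgeR, adjusted p = 0.00159) and by 2.26 (SE 0.344) in the rhesus (adjusted p = 0.000632). In the baboon 18.9% of all genes were called in this contrast and in the rhesus 14.8%. Of the genes followed here, 2 of 5 were called in the baboon and 1 of 6 in the rhesus, where DESeq2 called 4 and 2.

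Stroma-like cells held 233 and 93.0 CPM of ALDH1A1 in the baboons and 225 and 87.4 CPM in the rhesus. In the baboon these overlapped with the Sertoli-like levels, and in the rhesus they lay below them. The direct difference of stroma-like from Sertoli-like cells was -0.60 (SE 0.677) in the baboon (edgeR, adjusted p = 0.633) and -1.58 (SE 0.524) in the rhesus (adjusted p = 0.0579). With the animal as a block both differences were called, at -0.72 (SE 0.233, adjusted p = 0.0106) and -1.78 (SE 0.364, adjusted p = 0.0009). Against the mean of the other classes, baboon stroma-like cells were higher in ALDH1A1 (1.84, SE 0.504, adjusted p = 0.0237), a call that DESeq2 did not make (adjusted p = 0.0635). Over summed UMIs, where Sertoli-like cells weigh most, their ratio to the other classes was 0.523 (0.493 to 0.556), in the opposite direction. In each species the animal with the higher level in stroma-like cells was animal 1, whereas the higher Sertoli-like level was in baboon 1 but rhesus 2.

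Germ-like cells held little ALDH1A1, with 32.3 and 6.65 CPM in the baboons and 36.7 and 24.8 CPM in the rhesus. They lay below Sertoli-like cells by -4.16 (SE 0.813) on the log2 scale in the baboon (edgeR, adjusted p = 0.000885) and by -4.09 (SE 0.607) in the rhesus (adjusted p = 0.000489). The shares of all genes called between germ-like and Sertoli-like cells were high, at 44.5% and 33.3%. Sertoli markers summed to between 305 and 523 CPM in germ-like cells of the 4 animals and to between 8246 and 11243 CPM in Sertoli-like cells. Droplets near empty, which measure free RNA, held ALDH1A1 at 86.6 to 536 CPM. The part of Sertoli RNA in the germ-like level was not tested. Against the mean of all other classes, germ-like cells were lower by -2.32 (SE 0.710, adjusted p = 0.0175) and -2.52 (SE 0.517, adjusted p = 0.00171).

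Among the other classes, ALDH1A1 was lower in rhesus endothelial-like cells, at 58.9 and 14.3 CPM, than in the mean of the rest (-2.62, SE 0.576, edgeR adjusted p = 0.0071). Baboon endothelial-like cells held 38.4 and 18.2 CPM, a difference of -1.20 that was not called (edgeR, adjusted p = 0.359). It was called with the animal as a block (adjusted p = 0.0121) and without the filter on low counts (adjusted p = 0.0341). Rhesus macrophage-like cells held 242 and 215 CPM, above the mean of the rest by 1.38 (SE 0.406, adjusted p = 0.0495), a call that was lost without the first library of rhesus 2 (1.06, adjusted p = 0.235). Over summed UMIs, their ratio to the other classes was 0.852 (0.690 to 1.04). The libraries of rhesus 2 held 283 and 127 CPM there, and rhesus free RNA held 327 to 536 CPM. The Sertoli markers of macrophage-like cells summed to 1643 and 490 CPM. The part of these or of free RNA in their ALDH1A1 level was not tested. Rhesus Leydig-like cells held 183 and 114 CPM of ALDH1A1 and myoid-like cells 181 and 123 CPM, neither of them called. Baboon myoid-like cells held 104 and 68.4 CPM from 17 UMIs in all.

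**Figure D1:**
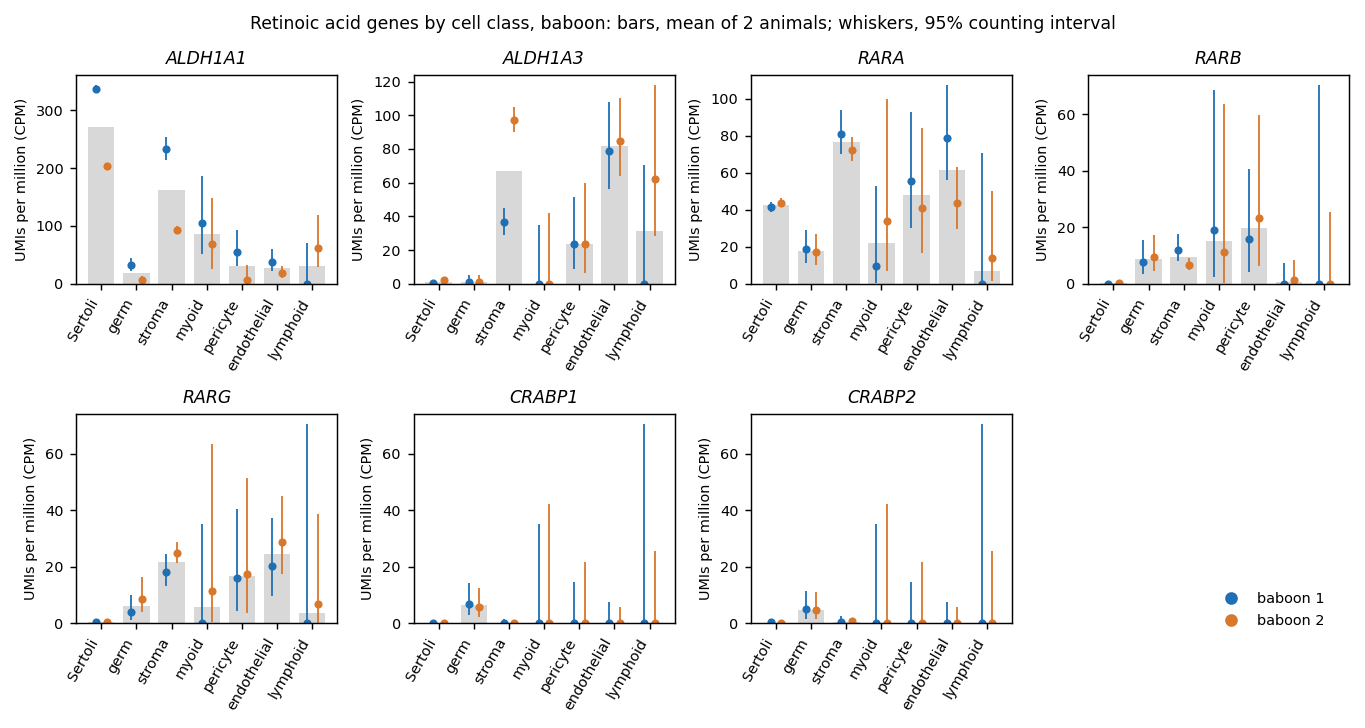
Level of each listed gene of the set in each baboon cell class, in CPM, with 1 point per animal. Sertoli-like cells lead ALDH1A1 (337 and 203 CPM), whereas ALDH1A3 and RARG lie near 0 there and are highest in stroma-like and endothelial-like cells.

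Thinning every cell to 1000 UMIs put the classes on one depth. A UMI of ALDH1A1 was then found in 25.2% of baboon Sertoli-like cells (exact 95% interval 24.4 to 26.0) and in 39.7% of rhesus ones (38.4 to 41.0). Among baboon germ-like cells the share was 1.89% (0.516 to 4.76) and among rhesus ones 4.68% (2.58 to 7.73). Stroma-like cells stood between, at 11.4% and 12.7%. Left at full depth the Sertoli-like shares were 56.1% at a median of 2753 UMIs and 60.03% at a median of 1764. Thinning left out 601 baboon and 731 rhesus Sertoli-like cells, 19 and 58 germ-like cells, and 777 and 2347 stroma-like cells, which were shallower. Shares in the text and their intervals pool the cells of both animals. With 500 UMIs drawn per cell, ALDH1A1 was seen in 15.3% and 9.31% of Sertoli-like cells of baboons 1 and 2. In rhesus 1 and 2 it was seen in 19.0% and 28.4% of them. Intervals and floors cover counting error only, and not the spread between animals.

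ALDH1A3, the other dehydrogenase with enough UMIs to follow, was low in Sertoli-like cells of both species and called higher in stroma-like ones. Baboon Sertoli-like cells held 0.444 and 2.08 CPM, against 36.5 and 97.4 CPM in stroma-like cells and 78.7 and 84.7 CPM in endothelial-like cells. Rhesus Sertoli-like cells held 3.502 and 1.18 CPM, against 63.7 and 20.2 CPM in stroma-like and 32.2 and 26.3 CPM in endothelial-like cells. Stroma-like and Sertoli-like levels did not overlap in either species. Stroma-like cells exceeded Sertoli-like cells by 5.81 (SE 0.698) in the baboon (edgeR, adjusted p = 3.74e-05) and by 4.27 (SE 1.01) in the rhesus (adjusted p = 0.0123). In this contrast 22% of all baboon genes and 15.8% of all rhesus genes were called. The count was 3 of 5 genes of the set in the baboon and 2 of 6 in the rhesus.

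Against the mean of the other classes, ALDH1A3 was higher in stroma-like cells of both species, by 4.33 (SE 0.659, edgeR adjusted p = 0.000445) and by 2.97 (SE 0.836, adjusted p = 0.0487). All 5 baboon genes tested were called higher in stroma-like cells, where 13.8% of all genes were called, and 3 of 6 rhesus genes, where 7.73% were. The baboon count includes ALDH1A1, whose ratio over summed UMIs was 0.523. Baboon endothelial-like cells were also higher in ALDH1A3 (4.63, SE 0.699, adjusted p = 0.000307), with 3 of 5 genes and 13.8% of all genes called. Rhesus endothelial-like cells differed by 2.26 (SE 1.06, adjusted p = 0.191), a difference called with the animal as a block (3.03, SE 0.560, adjusted p = 0.000562) and without the filter (2.27, SE 0.569, adjusted p = 0.00119). Over summed UMIs, their ratio to the other classes was 1.12 (0.851 to 1.45). In that class 1 of the 6 rhesus genes and 14.6% of all genes were called. The rhesus stroma call lay close to the threshold and was lost with another scaling (adjusted p = 0.0562).

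In the rhesus, myoid-like cells held the highest mean ALDH1A3 level of any class, with 129 and 22.8 CPM, above the other classes by 3.80 (SE 0.913, edgeR adjusted p = 0.0334). The libraries of rhesus 2 held 10.8 and 34.2 CPM, from 3 and 10 UMIs. The gene was 1 of 6 genes called there, against 4.18% of all genes. In the baboon 73 myoid-like cells with 193103 UMIs gave 0 UMIs of ALDH1A3, which allows up to 15.5 CPM on a count of 3. The other baboon classes held 13.3 CPM together, a pooled level in which Sertoli-like cells, with 81.5% of all UMIs, weigh most. A level below that pooled one was not detectable at this depth. On counting error alone, the allowed 15.5 CPM lay below the 82.0 CPM of stroma-like and the 82.2 CPM of endothelial-like cells, over both baboons. None of the 5 baboon genes was called in that class by edgeR, against 5.62% of all genes, while 1 had an unadjusted p under 0.05 and DESeq2 called 0. The rhesus difference was not called once cells with markers of 2 classes were left out (3.09, adjusted p = 0.246). Such cells were 214 of the 443 rhesus myoid-like cells. Clustering the cells gave no rhesus cluster named myoid-like, so that alternative did not test this difference.

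Germ-like cells were almost without ALDH1A3. The rhesus gave 0 UMIs among 1668340, so that the level lay at least 13.9-fold below the 25.0 CPM of the other classes, on a floor of 3 UMIs over the class. In the baboon there were 2 UMIs among 2073941, a ratio to the other classes of 0.0708 (0.00856 to 0.257). The rhesus difference from the mean of the other classes was called (edgeR, adjusted p = 0.0207). That from Sertoli-like cells, themselves low, was called only with the animal as a block (adjusted p = 0.289 without and 0.0495 with). Rhesus Leydig-like cells held 32.7 and 1.504 CPM, with the animals far apart, and none of the 6 genes was called there by edgeR, against 5.53% of all genes, although 1 had an unadjusted p under 0.05 and DESeq2 called 0. Without the filter on low counts edgeR called ALDH1A3 higher in these cells (2.11, SE 0.565, adjusted p = 0.00583, against 0.325 with the filter). Baboon pericyte-like cells held 23.8 and 23.4 CPM from 10 UMIs. In baboon lymphoid-like cells all 9 UMIs of ALDH1A3 came from 1 of 67 cells, in the animal whose lymphoid-like cells also held 2935 CPM of Sertoli markers. No gene of the set was called in that class by edgeR, against 4.94% of all genes, although 2 had an unadjusted p under 0.05 and DESeq2 called 0. Without the filter edgeR called ALDH1A3 higher there (3.28, SE 0.976, adjusted p = 0.0289), on the UMIs of that 1 cell.

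**Figure D2:**
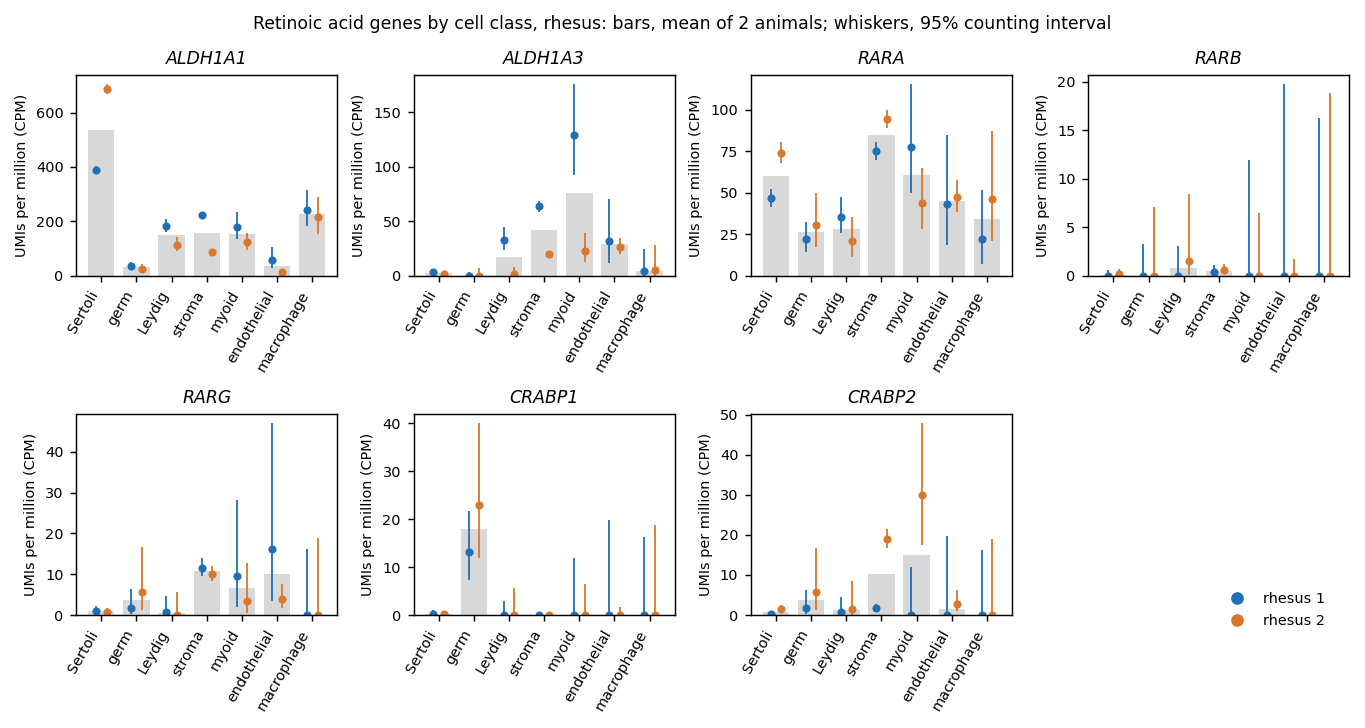
Level of the genes of the set in each rhesus cell class, in CPM, with 1 point per animal. ALDH1A2 and CYP26B1, which had too few UMIs, are not drawn. ALDH1A1 is highest in Sertoli-like cells (389 and 686 CPM), ALDH1A3 reaches 129 CPM in myoid-like cells of rhesus 1, and CRABP1 lies above 0 chiefly in germ-like cells.

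At 1000 UMIs per cell, ALDH1A3 was seen in 7.30% of baboon stroma-like cells, 8.30% of endothelial-like cells and 0.102% of Sertoli-like cells. The rhesus shares were 6.05% in myoid-like, 3.56% in stroma-like, 3.29% in endothelial-like and 0.156% in Sertoli-like cells. Free RNA held 2.26 to 10.8 CPM of ALDH1A3.

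The third dehydrogenase and the degrading enzyme were hardly seen. ALDH1A2 gave 1 UMI in 26477 rhesus cells and 0 in the tested classes. CYP26B1, which oxidises retinoic acid, gave 9 UMIs in rhesus cells, of which 3 fell in stroma-like, 2 in Sertoli-like, 2 in Leydig-like and 1 in endothelial-like cells, with no class above 1.64 CPM in any animal. Germ-like, myoid-like and macrophage-like cells gave 0. Neither gene passed the filter, and differences between classes were not detectable at this depth. Of its relatives, CYP26A1 gave 39 and 24 UMIs in rhesus Sertoli-like cells (5.94 and 3.14 CPM) and 3 and 6 UMIs in germ-like cells (2.62 and 11.5 CPM), and CYP26C1 gave 0 in all classes.

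**Figure D3:**
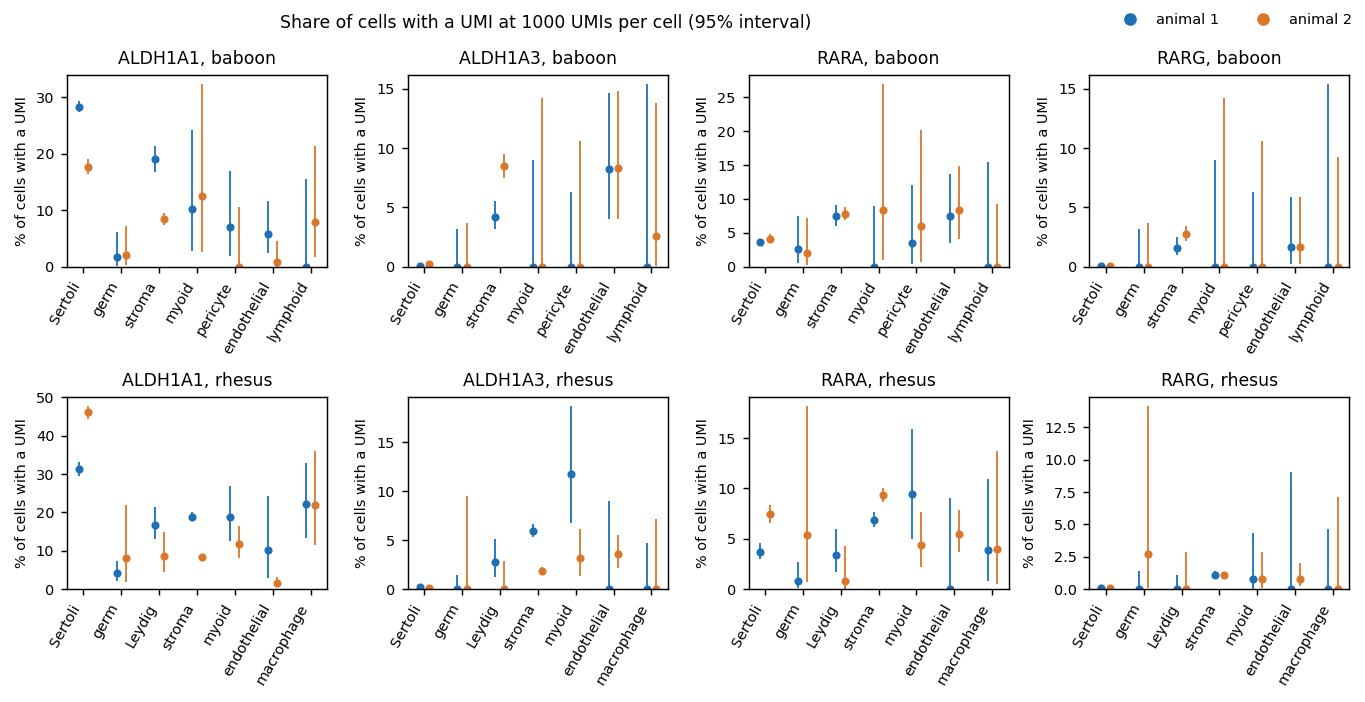
Share of cells with at least 1 UMI of a gene after thinning each cell to 1000 UMIs, in percent, by class, for ALDH1A1, ALDH1A3, RARA and RARG, with 1 point per animal and exact 95% intervals as whiskers. In each species ALDH1A1 stands highest in Sertoli-like cells (25.2% and 39.7% over both animals), where ALDH1A3 and RARG lie near 0.

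Among the receptors, RARA, the one known for wide expression, had UMIs in every class of both species, with 2 in baboon lymphoid-like cells. It gave 3599 UMIs in baboon and 3283 in rhesus cells. Its highest mean level was in stroma-like cells, with 81.2 and 72.4 CPM in the baboons and 74.9 and 94.4 CPM in the rhesus. These overlapped with baboon endothelial-like cells (78.7 and 43.9 CPM) and with rhesus myoid-like cells (77.5 and 43.9 CPM). Sertoli-like cells held 41.5 and 43.9 CPM and 46.7 and 73.9 CPM. Germ-like cells held 18.6 and 17.1 CPM and 21.8 and 30.5 CPM. These 3 levels stood in the same order in each of the 4 animals.

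Stroma-like cells were higher in RARA than the mean of the other classes by 1.62 (SE 0.312, edgeR adjusted p = 0.00237) in the baboon and 1.03 (SE 0.262, adjusted p = 0.028) in the rhesus. Their direct difference from Sertoli-like cells was 0.97 (SE 0.372) and 0.66 (SE 0.356), with adjusted p = 0.0791 and 0.256. With the animal as a block the baboon difference was called (0.96, SE 0.207, adjusted p = 0.000136). Germ-like cells were lower than Sertoli-like cells by -1.63 (SE 0.422, adjusted p = 0.00609) in the baboon and -1.26 (SE 0.4004, adjusted p = 0.0271) in the rhesus.

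Against the mean of all other classes, germ-like cells were lower in RARA by -1.41 (SE 0.422, edgeR adjusted p = 0.0152) in the baboon and -1.21 (SE 0.347, adjusted p = 0.0134) in the rhesus. The baboon value turned positive under 2 alternatives, at 0.29 for cells above the UMI cutoff alone and 1.99 without cells holding markers of 2 classes, neither of them called. Compared directly with Sertoli-like cells, baboon germ-like cells had 4 calls, RARA lower among them. All 4 held without cells holding markers of 2 classes. In germ-like cells 2 of 5 baboon and 4 of 6 rhesus genes were called, against 39.3% and 40.8% of all genes. Baboon endothelial-like cells were called higher in RARA (1.20, SE 0.358, adjusted p = 0.0362). Without the first library of baboon 1 this call was lost (0.91, adjusted p = 0.177). Free RNA held 27.7 to 54.2 CPM of RARA, a range that contains the Sertoli-like levels of 3 of the 4 animals.

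At equal depth RARA was seen in 7.68% of baboon and 8.31% of rhesus stroma-like cells, in 3.79% and 5.82% of Sertoli-like cells, and in 2.36% and 1.34% of germ-like cells.

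RARB, the receptor that is also a target of the pathway, gave 114 UMIs in the baboon and 18 in the rhesus, where the genes were counted on another annotation. In the baboon it was found in pericyte-like cells at 15.8 and 23.4 CPM, in stroma-like cells at 12.2 and 6.78 CPM and in germ-like cells at 7.83 and 9.50 CPM. Myoid-like cells held 19.0 and 11.4 CPM, from 3 UMIs. Sertoli-like cells held 0.121 and 0.181 CPM, 9 UMIs among 57897312. Pericyte-like cells were called higher (3.88, SE 0.929, edgeR adjusted p = 0.0159), 1 of 5 genes against 8.42% of all genes, on 8 UMIs, and stroma-like cells were called higher as well (2.85, SE 0.7501, adjusted p = 0.0203). Neither passed once cells with markers of 2 classes were left out (adjusted p = 0.0953 and 0.0558). RARB passed the filter on low counts only through pericyte-like cells of baboon 2 and myoid-like cells of baboon 1. The pericyte-like call therefore adds no support beyond the counts.

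Compared directly with Sertoli-like cells, RARB was higher in baboon stroma-like cells by 5.85 (SE 0.677, edgeR adjusted p = 2.80e-05) and in germ-like cells by 5.25 (SE 0.710, adjusted p = 7.13e-05). In the rhesus 11 of its UMIs fell in stroma-like cells (0.427 and 0.562 CPM), 1 in Sertoli-like and 1 in Leydig-like cells, and germ-like cells gave 0. RARB was not tested in the rhesus.

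RARG, the receptor known for differentiating spermatogonia in the mouse, was highest in stroma-like and endothelial-like cells by mean level, and these overlapped in both species. Baboon stroma-like cells held 18.2 and 24.8 CPM, endothelial-like cells 20.2 and 28.8 CPM, pericyte-like cells 15.8 and 17.6 CPM, and Sertoli-like cells 0.363 and 0.574 CPM. The endothelial-like level of baboon 1 joins 7.12 and 37.3 CPM in its libraries, from 2 and 8 UMIs. Rhesus stroma-like cells held 11.5 and 10.1 CPM, endothelial-like cells 16.1 and 3.82 CPM, and Sertoli-like cells 1.07 and 0.786 CPM. The Sertoli-like levels lay below the stroma-like levels in all 4 animals.

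Stroma-like cells exceeded Sertoli-like cells in RARG by 5.57 (SE 0.556, edgeR adjusted p = 5.85e-06) in the baboon and by 3.63 (SE 0.795, adjusted p = 0.00785) in the rhesus. Against the mean of the other classes they were higher by 2.09 (SE 0.404, adjusted p = 0.0024) and 3.20 (SE 0.741, adjusted p = 0.0198). Baboon endothelial-like cells were higher by 2.26 (SE 0.470, adjusted p = 0.00362), and baboon Sertoli-like cells lower by -4.41 (SE 0.700, adjusted p = 0.000447). The rhesus endothelial-like cells differed by 2.34 (SE 1.09, adjusted p = 0.186). Over summed UMIs, their ratio to the other classes was 0.765 (0.377 to 1.39). Rhesus RARG passed the filter on low counts only through stroma-like and endothelial-like cells of rhesus 1. Its rhesus stroma-like calls were therefore not independent of that filter.

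Germ-like cells held RARG at 3.92 and 8.55 CPM in the baboons, from 13 UMIs, and at 1.75 and 5.73 CPM in the rhesus, from 5 UMIs. The baboon germ-like cells lay above Sertoli-like cells by 3.29 (SE 0.624, edgeR adjusted p = 0.000718). The rhesus difference was 1.71 (SE 1.00, adjusted p = 0.209).

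**Figure D4:**
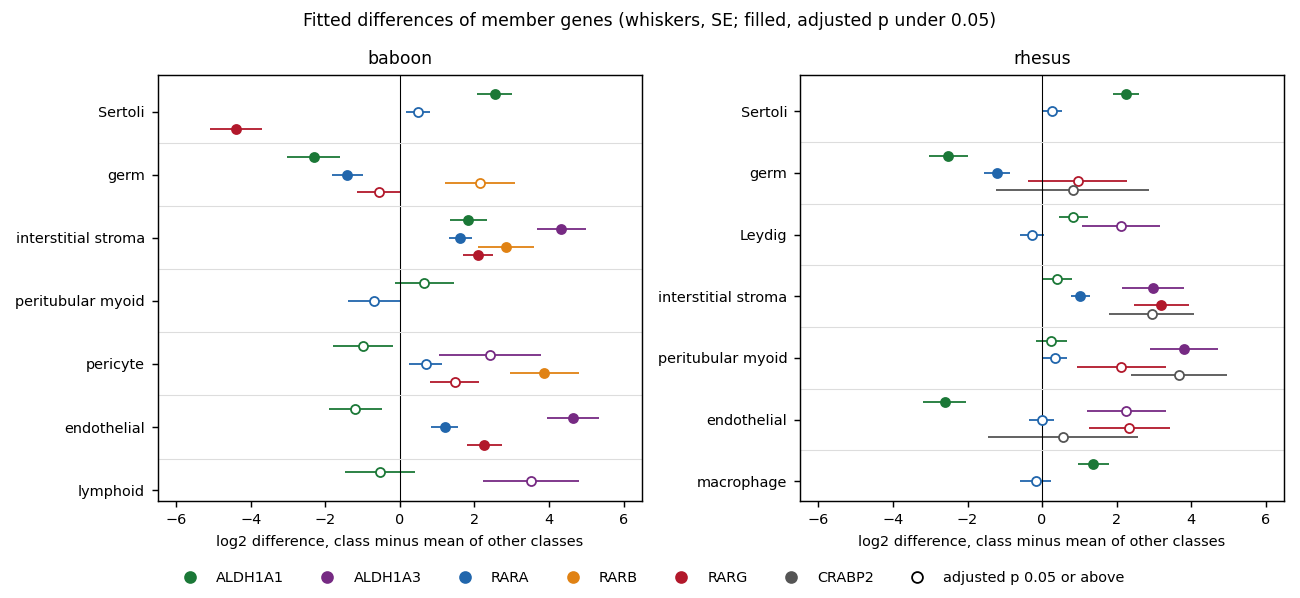
Fitted log2 difference of each gene of the set in a class from the mean of the other classes, by species, with SE as whiskers and filled points for adjusted p under 0.05 (edgeR). Pairs with few UMIs or an SE of 2.5 or more are not drawn. ALDH1A1 stands to the right in Sertoli-like cells (2.54 and 2.26) and to the left in germ-like cells (-2.32 and -2.52).

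CRABP1, a binding protein that holds retinoic acid in the cytoplasm, was the germ cell gene of the set, at low counts. In the rhesus, germ-like cells held 27 of its 30 UMIs in the 7 classes, with 13.1 and 22.9 CPM, and Sertoli-like cells the other 3. The level of rhesus 2 joins 10.1 and 39.5 CPM in its libraries, from 3 and 9 UMIs. The ratio of germ-like cells to the other classes was 224 (exact interval 68.9 to 1153), and the difference was called (edgeR, adjusted p = 0.00033). Against Sertoli-like cells alone it was 6.03 (SE 1.09, adjusted p = 0.00365). CRABP1 passed the filter on low counts only through its germ-like sums, so that these calls add no support beyond the counts. In the baboon 13 UMIs fell in germ-like cells, at 6.85 and 5.70 CPM, against 3 in Sertoli-like and 1 in stroma-like cells, a ratio of 108 (33.4 to 455). The libraries of baboon 1 held 8.65 and 3.05 CPM, from 6 and 1 UMIs. The baboon gene did not pass the filter, and without a filter germ-like cells were called higher (adjusted p = 0.000471). Free RNA held at most 0.318 CPM of CRABP1. At full depth a UMI of CRABP1 was found in 6.44% of rhesus germ-like cells (4.13 to 9.51) and in 5.19% of baboon ones (2.71 to 8.90). Sertoli-like cells had one in 0.0462% and 0.0242%.

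CRABP2, its paralog, gave 35 UMIs in baboon and 340 in rhesus cells. In the baboon germ-like cells held 4.89 and 4.75 CPM from 10 UMIs, a ratio to the other classes of 17.5 (7.27 to 39.6), which was called without the filter on low counts (edgeR, adjusted p = 0.0101). In the rhesus stroma-like cells held 252 of its UMIs, at 1.71 CPM in rhesus 1 and 19.0 CPM in rhesus 2, and myoid-like cells 0 and 29.9 CPM. The libraries of rhesus 2 held 18.2 and 19.8 CPM in stroma-like cells, so that the gap lay between the animals and not between libraries of an animal. Rhesus germ-like cells held 1.75 and 5.73 CPM. Neither the stroma-like (2.95, SE 1.14, adjusted p = 0.149) nor the myoid-like difference (3.68, SE 1.28, adjusted p = 0.171) was called, and both were with the animal as a block (adjusted p = 0.0118 and 0.0198) and without the filter (edgeR, adjusted p = 0.00252 and 0.0011). Against Sertoli-like cells the stroma-like difference was 3.66 (SE 1.22, adjusted p = 0.0628), and 3.502 (SE 0.731, adjusted p = 0.00122) with the block. Rhesus CRABP2 passed the filter on low counts only through stroma-like and myoid-like cells of rhesus 2. Its calls with the block in these classes therefore add no support beyond the counts.

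Stroma-like cells were split by whether they held more UMIs of C7 and IGFBP3 or of DLK1 and STC1, a split taken from earlier results of these data. ALDH1A3 was higher in the DLK1 and STC1 cells in each of the 4 animals. The levels were 64.5 against 33.0 CPM in baboon 1 and 197 against 87.5 CPM in baboon 2. They were 100.2 against 51.6 CPM in rhesus 1 and 32.1 against 15.0 CPM in rhesus 2. The counting intervals overlapped in baboon 1 (32.2 to 115 against 25.4 to 42.1 CPM, the first on 11 UMIs) and not in the other animals. RARB moved the other way in the baboons, at 0 and 1.95 CPM in DLK1 and STC1 cells against 13.9 and 7.29 CPM in C7 and IGFBP3 cells, with 0 and 1 UMIs in the first. RARG likewise gave 0 and 9.76 CPM against 20.6 and 26.5 CPM in the baboons, but 7.54 and 10.2 against 13.1 and 8.94 CPM in the rhesus. ALDH1A1 had no common direction, at 117 and 102 CPM in DLK1 and STC1 cells against 242 and 92.7 CPM in the baboons, and at 209 and 87.4 against 229 and 83.8 CPM in the rhesus. RARA stood at 93.9 and 74.2 against 82.5 and 73.6 CPM in the baboons and at 76.0 and 86.4 against 76.9 and 98.7 CPM in the rhesus. With 2 animals per species an exact permutation test could not reach 0.05, and none was made.

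**Figure D5:**
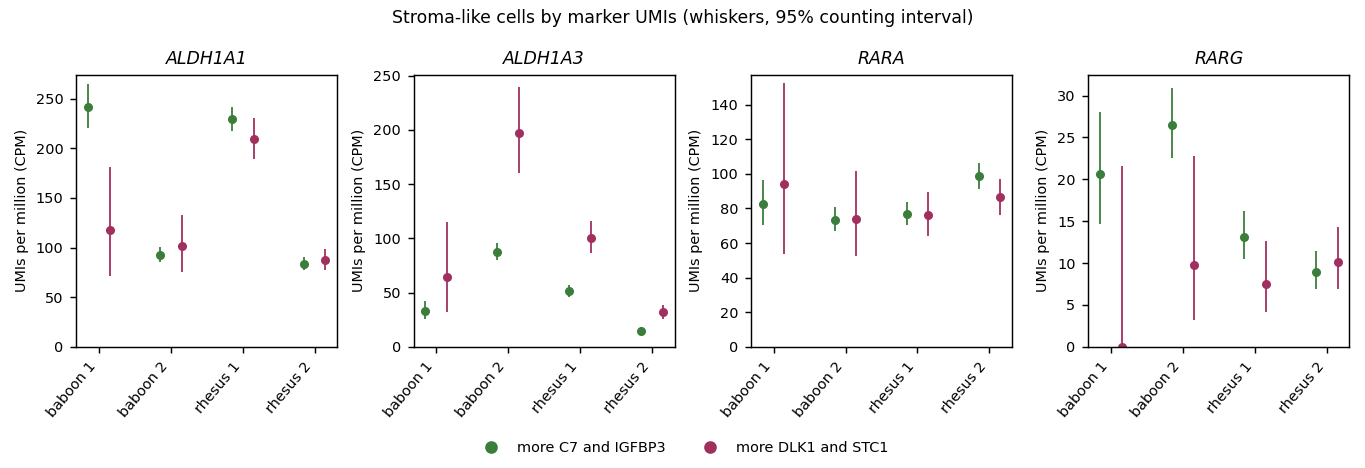
Levels of ALDH1A1, ALDH1A3, RARA and RARG in stroma-like cells split by marker UMIs, in CPM, with 1 point per animal and state and exact 95% counting intervals as whiskers. ALDH1A3 lies higher in cells with more DLK1 and STC1 in all 4 animals, for example 197 against 87.5 CPM in baboon 2.

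Germ-like cells were split in the same way into cells with more PIWIL4 and DIRAS3, genes of the least differentiated spermatogonia, and cells with more NANOS3 and L1TD1. In the baboon the 30 and 30 PIWIL4 and DIRAS3 cells of the animals held CRABP1 at 15.5 and 10.2 CPM, against 0 and 1.78 CPM in the 57 and 47 NANOS3 and L1TD1 cells. CRABP2 stood at 12.4 and 12.8 CPM against 1.79 and 0, and RARG at 9.30 and 17.9 CPM against 1.79 and 1.78. RARA stood the other way, at 9.30 and 12.8 CPM against 23.3 and 21.3 CPM. All of these rest on 13 UMIs or fewer per state and animal. In the rhesus 20 and 8 cells fell in the first state, with CRABP1 at 0 and 17.6 CPM against 8.10 and 21.6 CPM in the second.

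Baboon Sertoli-like cells with and without a UMI of the keratin KRT19 held nearly the same ALDH1A1, at 339 and 337 CPM in baboon 1 and 203 and 204 CPM in baboon 2. Sertoli-like cells with a UMI of the proliferation genes MKI67 or TOP2A held 297 and 246 CPM in the baboons, from 40 and 69 cells, and 420 and 592 CPM in the rhesus, from 11 and 34 cells.

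The wider pathway was followed through 38 genes in 6 lists, of which 21 were tested in the baboon and 19 in the rhesus. The breakdown list, CYP26A1 and CYP26C1, had no gene tested. In baboon Sertoli-like cells 5 of 21 were higher, NCOA2, NCOA3 and RDH13 among them, and 4 lower (RARRES2, DHRS3, FABP5 and PLAAT4), with a median difference of 0.44 beside 0.25 over all genes. Of all genes 13.5% were higher and 5.46% lower there. In rhesus ones NCOA2 was higher and FABP5 and DHRS3 lower, with a median of 0.02 beside 0.07, where 9% of all genes were higher and 5.81% lower. Baboon germ-like cells had 3 higher (FABP5, RBP4 and REC8) and 9 lower, and rhesus ones 1 higher (FABP5) and 7 lower, both with a median of -0.86 beside 0.11 over all genes. Of all genes 22.4% were higher and 16.8% lower in the baboon, and 25% and 15.8% in the rhesus. Baboon stroma-like cells had 5 higher, RARRES2, RDH10, RDH14 and RXRB among them, and FABP5 lower, and rhesus ones 3 higher (RARRES2, RDH14 and DHRS4) and FABP5 lower. Of all genes 11.1% were higher and 2.71% lower in the baboon stroma-like cells, and 5.72% and 2.01% in the rhesus ones.

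Endothelial-like cells had 4 higher in each species, of which TGM2, DHRS3 and NCOA3 were called in both, PLAAT4 in the baboon and NCOA1 in the rhesus, beside 11.8% and 10.4% of all genes. By list, the germ-like medians in the baboon were -0.16 for 4 conversion genes, 0.82 for 3 partners, -1.07 for 6 coregulators and -1.64 for 5 targets. The rhesus medians were -0.24 for 5 conversion genes, -0.53 for 4 partners, -1.55 for 5 coregulators and -1.61 for 4 targets.

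Of the supply genes, RBP4, the carrier of retinol in blood, gave 112 of its UMIs in baboon germ-like cells, at 45.0 and 62.7 CPM, and 16 in Sertoli-like cells. These germ-like sums were by themselves enough to pass the filter on low counts. The call of RBP4 in baboon germ-like cells is therefore not independent of that filter. Rhesus germ-like cells gave 6 and 1 UMIs of RBP4. LRAT, which stores retinol as esters, gave 0 UMIs in the tested classes of both species.

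Of the conversion genes, DHRS3, which reduces retinal back to retinol, was low in Sertoli-like cells, at 4.52 and 8.78 CPM in the baboons and 5.18 and 12.7 CPM in the rhesus. It was called lower there (-3.27 and -1.80, edgeR adjusted p = 9.66e-05 and 0.0239) and higher in endothelial-like cells (2.14 and 1.74, adjusted p = 0.000198 and 0.0157). RDH10, which oxidises retinol to retinal, stood at 36.5 and 35.4 CPM in baboon stroma-like cells (2.44, SE 0.392, adjusted p = 0.000544). It gave 1.39 and 2.09 CPM in the rhesus ones.

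Of the partners, FABP5, which can pass retinoic acid to PPARD, was high in germ-like cells, at 895 and 1085 CPM in the baboons and 332 and 479 CPM in the rhesus. It was called higher in both (5.36 and 3.19, edgeR adjusted p = 7.64e-08 and 1.26e-05), and rhesus macrophage-like cells were higher too (3.59, adjusted p = 1.005e-05). RXRG, a partner receptor, stood at 66.4 and 103 CPM in baboon myoid-like cells, from 16 UMIs, and was called higher there (7.58, SE 0.794, adjusted p = 3.84e-05). Its myoid-like sums were by themselves enough to pass the filter on low counts, so that this call is not independent of that filter.

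Of the coregulators, 3 of 6 were lower in baboon germ-like cells (NCOA3 and NCOA2 among them) and 3 of 5 in rhesus ones (NRIP1, NCOA1 and NCOA3), and none was higher, beside the 16.8% and 15.8% of all genes that were lower there. NCOA3, a coactivator, differed by -1.76 (SE 0.298) in baboon and -1.57 (SE 0.569) in rhesus germ-like cells (edgeR, adjusted p = 0.000325 and 0.0406). NCOA2 was higher in Sertoli-like cells of both species (1.38 and 1.55, adjusted p = 0.00178 and 0.00247).

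Of the known targets, RARRES2 was called higher in stroma-like cells of both species, at 1135 and 1071 CPM and at 1855 and 966 CPM (4.16 and 2.36, edgeR adjusted p = 2.11e-07 and 0.000682). Compared directly with Sertoli-like cells, the baboon difference was called (6.24, SE 0.486, edgeR adjusted p = 2.00e-06). The rhesus one was not (1.555, SE 0.534, adjusted p = 0.067). TGM2 was highest in endothelial-like cells (4.31 and 3.66, adjusted p = 1.34e-07 and 0.00678). STRA8, the gene that retinoic acid turns on as germ cells enter meiosis, gave 1 UMI in baboon and 2 in rhesus germ-like cells. REC8, a meiotic cohesin, stood at 39.2 and 20.0 CPM in baboon germ-like cells (1.32, SE 0.470, adjusted p = 0.0361). Its direct difference from Sertoli-like cells was not called (1.22, SE 0.513, edgeR adjusted p = 0.0657). In rhesus macrophage-like cells, where 1 of the 6 genes of the set and 9.34% of all genes were called, RARRES1 was higher (6.32, SE 0.976, adjusted p = 0.000746).

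The genes whose levels over the 14 sums of animal and class most resembled each gene of the set were listed by Pearson correlation of log2(CPM + 1). For baboon ALDH1A1 they were ZBTB47 (0.928), LGR4 (0.926) and FRZB (0.925), and for rhesus ALDH1A1 GAS6 (0.930), MGST3 (0.908) and PSD4 (0.899). ALDH1A3 was nearest to CLEC3B (0.960) in the baboon and to IGFBP4 (0.908) in the rhesus, RARA to GATAD1 (0.962) and DNAJC4 (0.915), and RARB to PTGIR (0.958) in the baboon. RARG had HOXD9 among its nearest 3 in both species, at 0.920 and 0.901. Rhesus CRABP2 was nearest to FABP7 (0.931). The sums share animals and libraries, and each value is a description over 14 points.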

How the data were processed

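Single-cell suspensions of testes from 2 baboons and 2 rhesus macaques were sequenced in 6 droplet libraries. The authors aligned the reads to Panubis1.0 or Mmul_10 and counted UMIs with Cell Ranger 3.1.0 (Seurat 3.2.3 is also named in their processing notes), and the deposited values are raw UMI counts of every barcode, without normalization or cell calling. Strand and multi-mapping settings are not given in the sources used here. ALDH1A2 and CYP26B1 were not analysed in the baboon.

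Cells were called per library from the raw counts. The UMI cutoff was the 99th percentile of the 5000 largest barcodes divided by 10. Smaller barcodes of at least 500 UMIs were kept where their profile differed from free RNA (ranks 45001 to 90000, 10000 simulated profiles, adjusted p of 0.01), with at least 200 genes. A cell joined a class with at least 2 of its markers and a posterior of 0.95 under seed profiles from 11 marker lists (112 genes). No class was given to 21.1% of baboon and 15.03% of rhesus cells. No doublet caller was run, and cells with at least 3 detected markers of each of 2 classes were left out in an alternative.

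Counts were summed per animal and class and tested with edgeR 4.0.16 (TMM, filterByExpr, quasi-likelihood F test, Benjamini-Hochberg over all genes tested, R 4.3.3), with n = 2 animals per class. The p-values rest on the spread between the animals within a class, pooled over all classes of the fit and drawn towards that of other genes. With the animal as a block, a shift common to all classes of an animal is taken out of that spread. On simulated counts for the germ contrasts the test recovered 94.8% of 174 changed genes in the baboon, with 4.62% false calls, and 88.9% of 199 in the rhesus, with 6.84%. The changed genes were drawn from those with many UMIs and given a large rise (median fitted log2 difference 2.24 and 1.98). All genes had a common spread, and classes were not paired by animal. The rates therefore do not carry over to genes with few UMIs or to paired classes. Classes of an animal are paired, and their deviations from the class means correlated above 0.1 in all pairs of classes except baboon myoid-like and lymphoid-like cells (0.0322). The correlation of Sertoli-like with stroma-like cells was 0.786 in the baboon and 0.607 in the rhesus, and with germ-like cells 0.557 and 0.29. The main test leaves this pairing out, and the fit with the animal as a block takes it in.

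Every gene of the set is named whatever its level. Pathway genes came from 6 lists, of which the text names the 3 with the smallest p per class and direction and those it counts up to 5 (some results are not reported here), and the genes of like pattern were the 3 of highest correlation among those with at least 100 UMIs. CYP26A1, CYP26C1, LRAT, STRA8 and NCOA3 in rhesus germ-like cells, and the cell states and their markers, were chosen after their values or earlier results were seen. The genes and lists were chosen with earlier results of these data known. Alternatives were RLE scaling, DESeq2 1.42.0, no filter, stricter cell calls, doublets left out, clusters in place of marker classes (scikit-learn 1.9.0, leidenalg 0.10.2, Python 3.11.15), each library as a sample, the animal as a block, and leaving out each library in turn where an animal has 2.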

Additional observations from a re-analysis of the deposited data

Results flagged for a closer look

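ALDH1A3 in myoid-like cells had computed differences from the other classes of opposite sign in the 2 species. The difference of log2(CPM + 1) from the mean of the other classes was -3.66 in the baboon and 2.88 in the rhesus, as the mean of 2 animals each, and both animals of a species lay on the same side. The difference between the species was not tested, since the reads were counted on different genomes. The baboon value rests on 0 UMIs in 73 cells, which allow up to 15.5 CPM against 13.3 CPM in the other baboon classes together. These counts therefore do not place baboon myoid-like cells below that pooled level. On counting error alone, they do place them below the 82.0 CPM of stroma-like and the 82.2 CPM of endothelial-like cells. In rhesus 2 the libraries held 10.8 and 34.2 CPM. The rhesus myoid-like cells held 7567 and 7250 CPM of stroma markers and the baboon ones 892 and 433 CPM, and the part of these in the difference was not tested.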

How the results depend on the processing

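Of 36 log2 differences called, 23 held under every alternative run in which they were tested. Differences that an alternative left untested were not counted against it. With each library as a sample, 23 of the 36 were tested. The 13 calls of the baboon became 8 with cells above the UMI cutoff alone and 8 with each library as a sample, and ranged from 6 to 13 when a library of baboon 1 was left out. The 11 calls of the rhesus became 6 without cells holding markers of 2 classes and ranged from 8 to 9 when a library of rhesus 2 was left out. For stroma-like against Sertoli-like cells the 3 baboon calls became 5 with the animal as a replicate block and ranged from 1 to 4 with a library left out. The 2 rhesus calls became 4 with the block and 4 without a filter and ranged from 1 to 2. For germ-like against Sertoli-like cells the 4 baboon calls became 2 with each library as a sample and ranged from 2 to 4, and the 3 rhesus calls became 1 without cells holding markers of 2 classes and were 2 with either library left out. The block lost none of the 36 called differences. RARA in baboon germ-like cells reversed against the mean of the other classes, to 0.29 with cells above the UMI cutoff and to 1.99 without cells of 2 classes. Its direct difference from Sertoli-like cells kept its call without cells of 2 classes. Counts fell in part because fewer pairs were tested, and otherwise the cause was not tested. Shares of cells follow the number of UMIs drawn, so that all 12 shares compared moved without thinning. CRABP1, RARB in the rhesus, CYP26B1 and ALDH1A2 are limited by depth, with at most 31 UMIs per species.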
